A study of Homo sapiens with 6 samples.

Results

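The genes analysed were AHR (aryl hydrocarbon receptor), its dimer partner ARNT, its repressor AHRR and 4 known AHR targets (CYP1A1, CYP1B1, TIPARP and ALDH1A3). Their expression was measured in RPE cells given erastin, an inducer of ferroptosis, with or without vitamin K1 (VK1) pretreatment. The 7 genes are 7 of the 33496 gene rows measured in each library. The set was chosen by the FPKM of CYP1A1 and CYP1B1, which was higher with VK1 than without it. The other 5 genes were then added by their role, with earlier results of these data known. The values of CYP1A1 and CYP1B1 are therefore a description without a test. The question was whether the receptor, its partner, its repressor or another target moved too.

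All 6 libraries were taken as ARPE-19, an established human retinal pigment epithelial line labelled wild type. Every title names ARPE-19, although the cell line field of the labels has a different number for each library. Every culture received erastin (5 μM, 24 h), which blocks cystine import and sets off ferroptosis. In the Era group (n = 3) erastin was given alone. In the Era+VK group (n = 3) VK1 (10 μM) was added 1 h ahead of erastin. The study's methods state no removal of VK1, so 1 h is the lead time and the exposure may have been longer. No library of unexposed cells was analysed here. Each value thus sets erastin after VK1 against erastin alone, in 1 cell line. The study reports that VK1 pretreatment protected erastin-treated ARPE-19 cells from death, so the groups may also differ in how far ferroptosis went. Such a difference in cell state and other effects of VK1 cannot be told apart here. Expression is in FPKM, the fragments of a gene scaled to its transcript length and to the mapped fragments of the library, a scale on which levels of different genes can be set side by side.

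AHR is a transcription factor of the bHLH-PAS family that is held in the cytosol by HSP90 and p23 until it binds a ligand, such as a dioxin, a polycyclic aromatic hydrocarbon or a tryptophan metabolite. It then enters the nucleus, pairs with ARNT and binds dioxin response elements, whose core is GCGTG. CYP1A1 and CYP1B1, cytochrome P450 enzymes that oxidise aromatic hydrocarbons and oestrogens, are its best known targets, while AHRR and TIPARP are targets that restrain the receptor in turn.

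To show where that core lies, the 250 bases before each annotated transcription start were read from RefSeq (GRCh38.p14) for the 6 members with an entry, AHR, ARNT, AHRR, CYP1A1, TIPARP and ALDH1A3. The windows of the 3 targets among them are printed 5′ to 3′ in the direction of transcription. Capitals mark GCGTG, or CACGC, which is the same core on the other strand. GCGTG is also 1 of the forms of the core that hypoxia-inducible factors bind, so a match does not name a factor.

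CYP1A1, minus strand, chr15:74725529-74725778: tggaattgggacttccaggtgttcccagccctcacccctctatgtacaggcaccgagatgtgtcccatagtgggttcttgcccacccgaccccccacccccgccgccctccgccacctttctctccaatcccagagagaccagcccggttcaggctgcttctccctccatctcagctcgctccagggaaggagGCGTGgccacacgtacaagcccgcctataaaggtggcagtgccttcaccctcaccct

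TIPARP, first annotated start, plus strand, chr3:156674340-156674589: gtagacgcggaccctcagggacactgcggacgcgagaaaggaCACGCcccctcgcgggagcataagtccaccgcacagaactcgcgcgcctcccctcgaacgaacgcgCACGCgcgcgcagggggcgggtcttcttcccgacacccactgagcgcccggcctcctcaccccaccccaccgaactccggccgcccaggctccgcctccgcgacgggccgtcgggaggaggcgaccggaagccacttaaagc

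ALDH1A3, plus strand, chr15:100879581-100879830: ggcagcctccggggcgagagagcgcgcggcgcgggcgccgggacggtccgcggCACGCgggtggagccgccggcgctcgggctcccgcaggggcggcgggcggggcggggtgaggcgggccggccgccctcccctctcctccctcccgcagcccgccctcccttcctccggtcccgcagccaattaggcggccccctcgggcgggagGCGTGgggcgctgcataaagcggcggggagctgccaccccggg

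The CYP1A1 window held 1 match, which began 57 bases before the start. The response elements that CYP1A1 is known for lie further upstream than this window reaches. The first TIPARP window held 2 matches, at 208 and 142 bases before the start, and the windows at its other 2 annotated starts held none. The ALDH1A3 window held 2 matches, at 197 and 43 bases. The AHRR windows at 2 annotated starts held 1 and 2 matches, and the windows of AHR and ARNT held none of these letters. A match is a common feature: 32.2% of all 35116 windows, and 44.4% of the windows of genes tested here, held at least 1.

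The cells and libraries were checked first, since that bears on every value below. Of 13 RPE markers with a row, RPE65 (the visual cycle isomerase) was at 0.02 FPKM or less and RLBP1 at 0.29 FPKM or less in every library, whereas OTX2 (27.5 to 31.4 FPKM), KRT8 and KRT18 were well expressed. BEST1 ranged from 0.60 to 57.0 FPKM over the 6 libraries, and its gene overlaps FTH1. The summed level of 12 erythroid genes was 0.08 to 0.21 FPKM in the Era libraries, 0.14 FPKM in Era+VK replicate 1, and 239 and 231.6 FPKM in Era+VK replicates 2 and 3. In those 2 libraries HBG2, a fetal globin, was listed at 101.8 and 100.25 FPKM and GATA1 at 2.35 and 2.27 FPKM. The members and the groups of pathway genes are therefore also given for Era+VK replicate 1 alone against the 3 Era libraries. Hepatocyte markers, relevant because CYP1 genes are strongly inducible in liver, summed to 0.97 to 1.30 FPKM with ALB at 0.03 FPKM or less. Among 4 immune markers with a row, CD68 held nearly all of the summed level, with 43.3 to 50.7 FPKM in the Era libraries against 34.5 to 38.4 FPKM in the Era+VK libraries, while PTPRC stayed at 0.14 FPKM or less. The part of these markers in the results below was not tested, and in such bulk samples fewer cells of a type and less RNA per cell cannot be told apart.

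**Figure D1:**
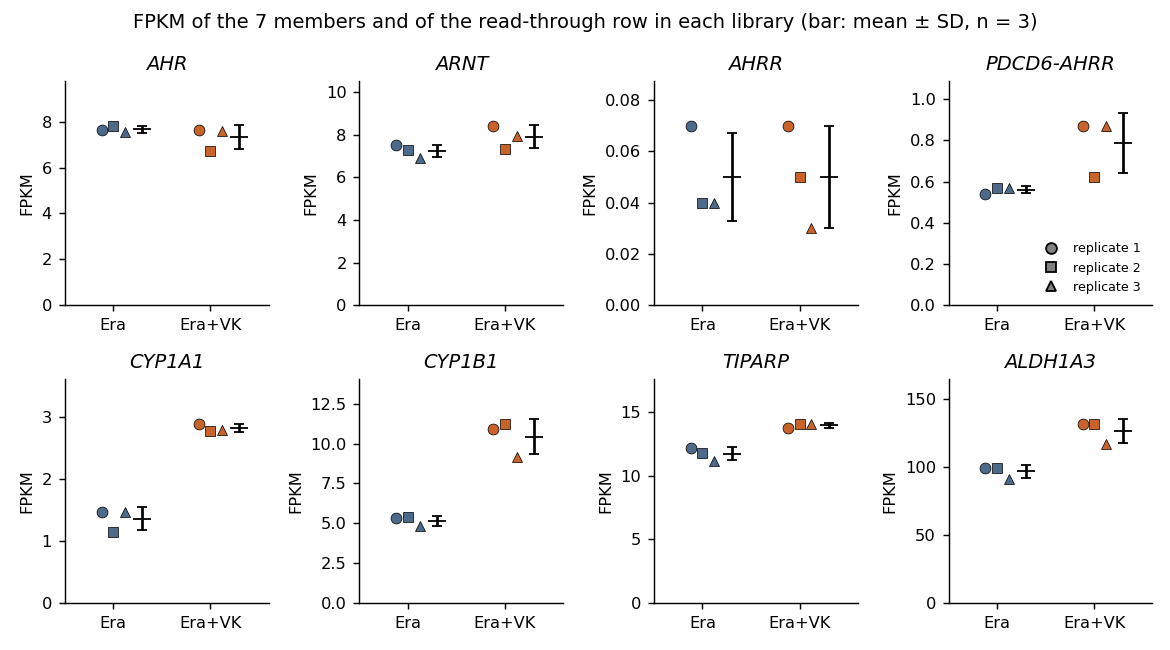
FPKM (vertical axis, linear from 0, a separate scale for each gene) of the 7 members and of the PDCD6-AHRR read-through row in the 3 Era (blue) and 3 Era+VK (orange) libraries, with the mean ± SD beside the points and the marker shape giving the replicate. AHR, ARNT and AHRR overlap between the groups, whereas all 3 Era+VK libraries lie above all 3 Era libraries for CYP1A1, CYP1B1, TIPARP and ALDH1A3. The same holds for the PDCD6-AHRR row (0.54 to 0.57 FPKM in Era, 0.62 to 0.87 FPKM in Era+VK). CYP1A1 and CYP1B1 were chosen for their rise, and 15.1% of all genes tested were separated in this direction.

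The receptor and its partner were expressed at similar levels and neither passed the test. AHR (ENSG00000106546, chromosome 7, 16916359 to 17346152, plus strand) was at 7.64, 7.82 and 7.54 FPKM in Era replicates 1, 2 and 3. In Era+VK replicates 1, 2 and 3 it was at 7.64, 6.73 and 7.60 FPKM. The groups overlapped, since Era+VK replicate 2 was the lowest of the 6 libraries and the other 2 Era+VK libraries lay within the range of the Era values. The mean was 7.67 ± 0.142 FPKM for Era and 7.32 ± 0.514 FPKM for Era+VK (SD, n = 3 each). The difference Era+VK minus Era in log2(FPKM + 1) was -0.06 (standard error 0.06, 95% interval -0.19 to 0.07, adjusted p = 0.649 in limma). For Era+VK replicate 1 alone it was -0.00 (adjusted p = 0.978 in limma). Positions given here and below were looked up in GENCODE 29 (GRCh38) by Ensembl identifier.

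ARNT (ENSG00000143437, chromosome 1, 150809705 to 150876768, minus strand) also pairs with the hypoxia-inducible factors. It was at 7.52, 7.26 and 6.92 FPKM in Era replicates 1, 2 and 3, and at 8.41, 7.33 and 7.95 FPKM in Era+VK replicates 1, 2 and 3. Only Era+VK replicate 2 fell inside the range of the Era libraries, below Era replicate 1, while the other 2 Era+VK libraries were above all of them. The means were 7.23 ± 0.301 FPKM and 7.90 ± 0.542 FPKM (SD, n = 3 each), a difference of 0.11 in log2(FPKM + 1) (standard error 0.06, 95% interval -0.03 to 0.25, adjusted p = 0.410 in limma). With Era+VK replicate 1 alone the difference was 0.19 (adjusted p = 0.284 in limma).

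The ratio of AHR to ARNT, which was looked at after the values were seen and has no test, was 1.02, 1.08 and 1.09 in the Era libraries and 0.908, 0.918 and 0.956 in the Era+VK libraries. RNA of AHR was thus slightly above that of ARNT in each Era library and slightly below it in each Era+VK library. The single-gene differences did not pass, and protein was not measured in these libraries.

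AHRR (ENSG00000063438, chromosome 5, 304176 to 438291, plus strand), which competes with AHR for ARNT, was near 0 throughout. It was listed at 0.07, 0.04 and 0.04 FPKM in the Era libraries and at 0.07, 0.05 and 0.03 FPKM in the Era+VK libraries, in replicate order. Its mean of 0.05 FPKM was the same in each group, and it lay below the minimum of 1 FPKM set for the limma fit. An exact permutation test over the 6 libraries gave p = 1 (two-sided), in a design of 3 against 3 libraries whose p cannot fall below 0.1. The row of the read-through gene PDCD6-AHRR, which joins AHRR to the upstream gene PDCD6, was at 0.54, 0.57 and 0.57 FPKM in the Era libraries and 0.87, 0.62 and 0.87 FPKM in the Era+VK libraries. Its groups did not overlap, with a mean of 0.56 ± 0.0173 FPKM against 0.787 ± 0.144 FPKM (SD, n = 3 each), and the exact permutation test (two-sided) gave its smallest possible p of 0.1. The difference from the Era mean was 0.26 in log2(FPKM + 1) for Era+VK replicate 1 alone. This row was also below the minimum, and in a limma fit without a minimum its adjusted p was 0.592. It lists a transcript that GENCODE 29 assigns to AHRR itself, so how fragments were split between the 2 rows is uncertain. PDCD6 alone ranged from 5.97 to 8.10 FPKM with erastin alone and from 6.84 to 8.30 FPKM after VK1 (adjusted p = 0.805 in limma).

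CYP1A1 and CYP1B1, whose values chose the set, were about 2-fold higher in Era+VK. CYP1A1 (ENSG00000140465, chromosome 15, 74719542 to 74725610, minus strand) was at 1.47, 1.15 and 1.46 FPKM in Era replicates 1, 2 and 3. In Era+VK replicates 1, 2 and 3 it was at 2.89, 2.77 and 2.79 FPKM. Every Era+VK library lay above every Era library, and the Era+VK libraries were close together (coefficient of variation 2.28%) compared with the Era libraries (13.4%). The means of 1.36 ± 0.182 FPKM and 2.82 ± 0.0643 FPKM (SD, n = 3 each) stood in a ratio of 2.07. The difference in log2(FPKM + 1) was 0.70, and it would be 1.01 with a pseudocount of 0.1, because the added 1 weighs on a gene at this level. CYP1A1 was a low gene, with 16.6% of the 11981 genes tested having a lower mean.

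CYP1B1 (ENSG00000138061, chromosome 2, 38066973 to 38109902, minus strand) is the CYP1 enzyme most associated with tissues outside the liver, including the eye. It was at 5.31, 5.38 and 4.81 FPKM in Era replicates 1, 2 and 3, and at 10.9, 11.3 and 9.18 FPKM in Era+VK replicates 1, 2 and 3. The groups did not overlap, and replicate 3 was the lowest library of each group. The means were 5.17 ± 0.311 FPKM and 10.4 ± 1.11 FPKM (SD, n = 3 each), a ratio of 2.02 and a difference of 0.89 in log2(FPKM + 1). CYP1B1 was 3.30 to 4.68 times as high as CYP1A1 in the Era libraries and 3.29 to 4.07 times in the Era+VK libraries, so these ranges overlapped. Among all genes tested the differences of CYP1B1 and CYP1A1 were the 25th and 31st largest rises, ranks that follow from their choice by a rise. Genes ranked above them include globin genes high only in Era+VK replicates 2 and 3, such as HBG2 (4.42). For Era+VK replicate 1 alone, the library without globin transcripts, the differences were 0.95 and 0.72.

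Neighbours of the CYP1 genes were near 0. CYP1A2, the hepatic member of the family, was listed at 0 in every Era library and at 0.02, 0.03 and 0 FPKM in Era+VK. CYP1B1-AS1, which overlaps CYP1B1 on the opposite strand, was at 0.06 to 0.12 FPKM in the 6 libraries. Whether the fragments were counted by strand is not given in the sources used here, so reads of CYP1B1 and CYP1B1-AS1 cannot be told apart with certainty.

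The 2 further targets were higher in every Era+VK library, but neither passed the threshold in limma. TIPARP (ENSG00000163659, chromosome 3, 156673235 to 156706770, plus strand) encodes a mono-ADP-ribosyltransferase that is induced by AHR and promotes its breakdown. It was at 12.2, 11.8 and 11.2 FPKM in Era replicates 1, 2 and 3, and at 13.8, 14.1 and 14.1 FPKM in Era+VK replicates 1, 2 and 3. The gap between the highest Era library and the lowest Era+VK library was wider than the range within either group. The means of 11.7 ± 0.508 FPKM and 14.0 ± 0.193 FPKM (SD, n = 3 each) gave a ratio of 1.19. The difference was 0.24 in log2(FPKM + 1) (standard error 0.05, 95% interval 0.13 to 0.34, adjusted p = 0.0760 in limma). Over all alternatives run, its adjusted p in limma was 0.0644 to 0.246, the highest with Era+VK replicate 1 alone (difference 0.22).

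ALDH1A3 (ENSG00000184254, chromosome 15, 100877714 to 100916626, plus strand) encodes a retinaldehyde dehydrogenase that makes retinoic acid, and it was by far the most abundant member, above 98.1% of the genes tested. It was at 99.3, 99.8 and 91.7 FPKM in Era replicates 1, 2 and 3, and at 132.25, 131.6 and 116.9 FPKM in Era+VK replicates 1, 2 and 3. As for CYP1B1, the groups did not overlap and replicate 3 was the lowest of each group. The means of 96.9 ± 4.54 FPKM and 126.9 ± 8.71 FPKM (SD, n = 3 each) gave a ratio of 1.31. The difference was 0.38 in log2(FPKM + 1) (standard error 0.06, 95% interval 0.24 to 0.53) with an adjusted p of 0.0516 in limma, just above the threshold of 0.05. It fell below the threshold in 4 of 13 alternatives: with at least 1 FPKM required in every library (adjusted p = 0.0326 in limma), after quantile normalization (0.0284), after rescaling without mitochondrially encoded genes (0.0422) and without Era+VK replicate 3 (0.0462). With Era+VK replicate 1 alone the difference was 0.45 (adjusted p = 0.0811 in limma).

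**Figure D2:**
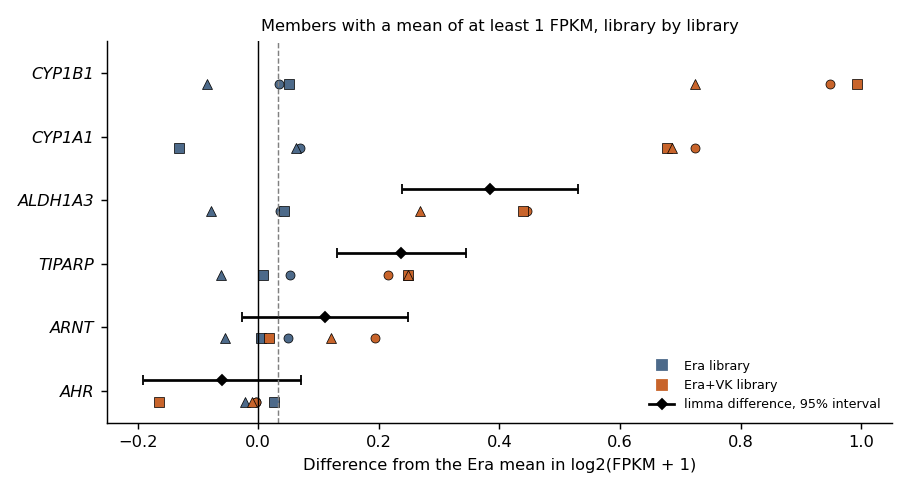
Difference of each library from the mean of the 3 Era libraries in log2(FPKM + 1) (horizontal axis) for the 6 members that reached the minimum level, Era in blue and Era+VK in orange, marker shape by replicate; black diamonds with bars are the limma difference with its 95% interval, omitted for CYP1A1 and CYP1B1, and the dashed line is the median of all genes tested, 0.03. The intervals of TIPARP (0.13 to 0.34) and ALDH1A3 (0.24 to 0.53) lie above 0, whereas those of ARNT and AHR include it. They are not adjusted for the number of genes, and neither TIPARP nor ALDH1A3 passed after adjustment. Of the 11981 genes tested, 15.8% had an unadjusted p under 0.05 in limma, and so an interval without 0.

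Of the 5 members that were added by role, none passed in limma, where 74 of the 11981 genes tested did (0.618%), 16 of them higher in Era+VK (0.134%) and 58 lower (0.484%). The number called dropped to 3, 2 and 5 when Era replicate 1, 2 or 3 was left out and to 42 when Era+VK replicate 3 was. TIPARP had the 156th and ALDH1A3 the 75th lowest p. Of the 4 such members that were tested, 2 had Era+VK libraries wholly above the Era libraries, which held for 15.1% of all genes tested. Complete separation of the groups was therefore common among all genes, and 22.1% of them showed it in 1 direction or the other. By size, ALDH1A3 was the 93rd and TIPARP the 410th largest rise, behind, among others, globin genes high only in Era+VK replicates 2 and 3. Of the 4 tested members added by role, ALDH1A3 had the largest difference, followed by TIPARP and ARNT, with AHR last. CYP1A1 and CYP1B1 are left out of this order, since their rise chose the set. The 95% intervals of neighbours in that order overlapped from ALDH1A3 down to AHR, and these differences between members were not tested.

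**Figure D3:**
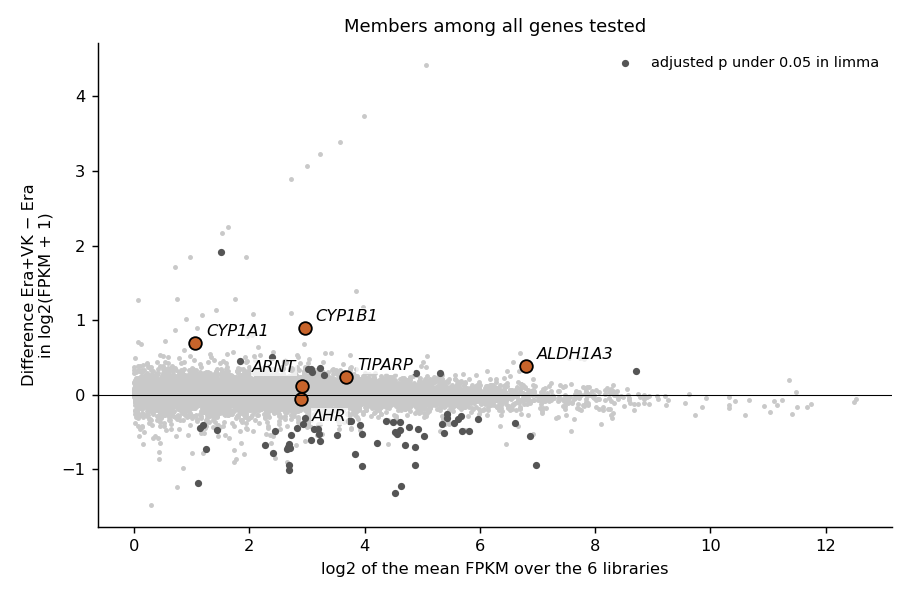
Each point is 1 of the 11981 genes tested, with log2 of its mean FPKM over the 6 libraries on the horizontal axis and the difference Era+VK minus Era in log2(FPKM + 1) on the vertical axis; dark points had an adjusted p under 0.05 in limma and orange points are 6 of the members. CYP1A1 (0.70) and CYP1B1 (0.89) stand above most genes of their level, which follows from their choice by a rise. AHR (-0.06) and ARNT (0.11) lie in the bulk.

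Next, other genes of the pathway were examined by role. Of 24 further known AHR targets, 21 had a row and 8 reached a mean of 1 FPKM. None of the 8 was called, and 6 of them had a lower mean in Era+VK. Their median difference was -0.21 in log2(FPKM + 1), beside 0.03 for all genes tested, and in 5 of them every Era+VK library was below every Era library, against 7.04% of all genes tested. NQO1, the quinone reductase that AHR and NRF2 induce and that can also reduce vitamin K quinones, was at 223.1, 214.0 and 218.5 FPKM in the Era libraries and 181.8, 204.1 and 195.5 FPKM in the Era+VK libraries. The groups of NQO1 did not overlap, and its difference was -0.17 (adjusted p = 0.197 in limma). SLC7A5, the large neutral amino acid transporter, which ATF4 also induces, had means of 176.9 and 142.3 FPKM for Era and Era+VK (difference -0.31, adjusted p = 0.154 in limma). The ATF4 gene was itself lower in Era+VK (difference -0.55, adjusted p = 0.0128 in limma), and its part in these values was not tested.

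The cell cycle inhibitor gene CDKN1A was at a mean of 134.8 and 127.8 FPKM, with overlapping groups (difference -0.08, adjusted p = 0.5002 in limma). SERPINB2, a plasminogen activator inhibitor gene, had the lowest difference of the 8, -0.37, from 8.26 to 6.17 FPKM (adjusted p = 0.0841 in limma). STC2, which encodes a stanniocalcin, had a mean of 31.7 and 26.8 FPKM (difference -0.24, adjusted p = 0.123 in limma), and was called only without Era+VK replicate 2 (-0.29, adjusted p = 0.0430 in limma). NFE2L2, the gene of NRF2, had Era+VK libraries above all Era libraries by a small margin (8.69 to 9.16 FPKM, difference 0.07, adjusted p = 0.460 in limma). SERPINB2, STC2 and NFE2L2 were named after their values were seen.

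None of the 17 genes for chaperones, coactivators and electron donors of P450 enzymes was called; all 17 were tested, 10 with a higher and 7 with a lower mean, and their median difference was 0.03. HSP90AB1, which holds the unliganded receptor, had means of 404.8 and 375.9 FPKM for Era and Era+VK (difference -0.11, adjusted p = 0.370 in limma). Its paralog HSP90AA1 had a mean of 224.7 and 231.9 FPKM (0.04, adjusted p = 0.666 in limma). PTGES3, which encodes p23, had a mean of 94.4 and 92.0 FPKM (-0.04, adjusted p = 0.785 in limma). RNA of these 3 chaperone genes was thus over 10 times as abundant per length as that of AHR in each group.

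Of 12 other bHLH-PAS genes with a row, 6 were tested and 1 was called. EPAS1, which encodes HIF-2α and shares ARNT as a partner, was at 26.3, 25.6 and 24.9 FPKM in the Era libraries and at 19.2, 18.7 and 21.0 FPKM in the Era+VK libraries. It fell in Era+VK, from a mean of 25.6 ± 0.702 to 19.7 ± 1.22 FPKM (SD, n = 3 each), a difference of -0.37 (standard error 0.05, adjusted p = 0.0340 in limma). This call was lost without any 1 of the Era libraries, without Era+VK replicate 1 or 2, with Era+VK replicate 1 alone, without a minimum level and with the replicate number as a block, with adjusted p-values of 0.0576 to 0.177 in limma and differences of -0.40 to -0.33. HIF1A had means of 180.5 and 169.9 FPKM for Era and Era+VK (-0.09, adjusted p = 0.479 in limma). ARNT2, the paralog of ARNT, had a mean of 5.13 and 5.58 FPKM with no overlap (0.10, adjusted p = 0.330 in limma).

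Of 11 enzymes with a row that break tryptophan down to kynurenine, a known AHR ligand, and related compounds, 4 reached the minimum and none was called, 2 with a higher and 2 with a lower mean (median difference -0.01). KYAT3 (12.8 and 12.5 FPKM), AFMID (3.47 and 3.56 FPKM) and AADAT (2.55 and 2.06 FPKM) had adjusted p-values of 0.857, 0.927 and 0.409 in limma.

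In the retinoid pathway, which ALDH1A3 feeds, 11 of 17 genes with a row were tested and none was called, 7 with a higher and 4 with a lower mean (median difference 0.00). RDH10, which makes the retinaldehyde that ALDH1A3 oxidises, was below in every Era+VK library, with means of 37.4 and 31.9 FPKM for Era and Era+VK (-0.22, adjusted p = 0.206 in limma). DHRS3, which reduces retinaldehyde back to retinol and is induced by retinoic acid, had a mean of 34.8 and 36.1 FPKM (0.05, adjusted p = 0.790 in limma). RXRB, a retinoid X receptor gene, had a mean of 15.4 and 15.7 FPKM (0.02, adjusted p = 0.890 in limma).

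Of 31 P450 genes outside the CYP1 family, 8 were tested and none was called, 4 with a higher and 4 with a lower mean (median difference 0.03). CYP24A1, the vitamin D 24-hydroxylase, was at 60.0, 71.0 and 55.7 FPKM in the Era libraries and 81.4, 81.9 and 69.7 FPKM in the Era+VK libraries. Era replicate 2 lay above Era+VK replicate 3, so the groups overlapped, and the difference was 0.32 (adjusted p = 0.197 in limma). CYP51A1, the lanosterol demethylase of cholesterol synthesis, had a mean of 15.9 and 17.02 FPKM (0.10, adjusted p = 0.625 in limma). CYP2U1, a fatty acid hydroxylase, had a mean of 10.7 and 11.2 FPKM (0.07, adjusted p = 0.663 in limma).

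With Era+VK replicate 1 alone against the 3 Era libraries, none of the genes in these 6 groups was called in limma. The median difference in log2(FPKM + 1) was then -0.28 for the further AHR targets, 0.07 for chaperones, coactivators and electron donors, 0.03 for bHLH-PAS genes, -0.12 for kynurenine enzymes, 0.02 for retinoid genes and 0.07 for other P450 genes, beside 0.03 for all genes tested. Of the 8 AHR targets tested, 6 were again lower, among them SERPINB2 (-0.44), STC2 (-0.30), SLC7A5 (-0.29), NQO1 (-0.26) and CDKN1A (-0.15). EPAS1 was at -0.40 (adjusted p = 0.0754 in limma), RDH10 at -0.29 and CYP24A1 at 0.39. AFMID was the named gene whose sign changed, to -0.14.

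**Figure D4:**
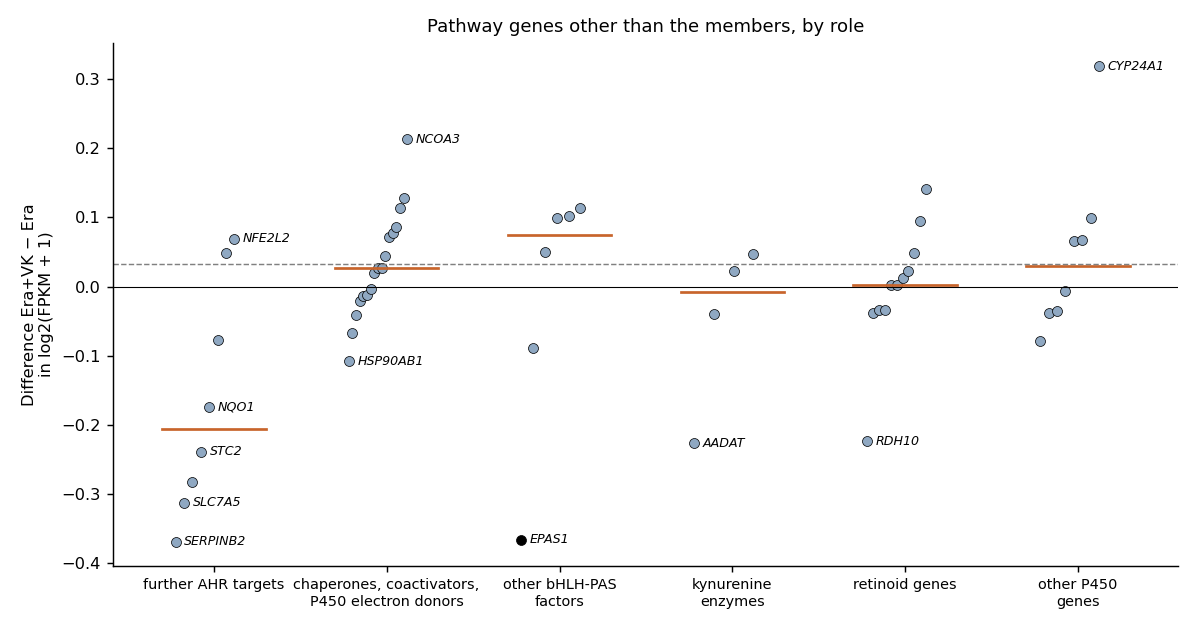
Difference Era+VK minus Era in log2(FPKM + 1) (vertical axis) of each tested gene of 6 groups of pathway genes other than the members (horizontal axis); orange lines are group medians, the dashed line is the median of all genes tested (0.03) and the black point is the gene with an adjusted p under 0.05 in limma. The further AHR targets have the lowest median (-0.21), and EPAS1 (-0.37) is the gene that passed.

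Finally, the genes whose log2(FPKM + 1) ran most alike with the CYP1 genes over the 6 libraries were sought, as a description of points that fall into 2 groups and share those libraries. For CYP1A1 these were EXT2 (r = 0.998), PERP (0.995), KLHL24 (0.992), BRMS1L (0.991) and VAMP4 (0.991). For CYP1B1 they were PLA2G15 (r = 0.999), CHKA (0.998), KLHL20 (0.995), GPR137B (0.995) and APLP1 (0.992). No gene stood on both lists of 5. CYP1A1 and CYP1B1 correlated with each other at r = 0.953, which follows in part from the choice of both by the same rise. Such likeness was frequent: among the 11981 genes tested, with the members left out, 464 reached r above 0.9 with CYP1A1 and 414 with CYP1B1. The rises of these 10 genes went from 0.12 for PERP to 0.27 for CHKA in log2(FPKM + 1). They were below those of the CYP1 genes, which were chosen for their rise. None of the 10 passed in limma (lowest adjusted p 0.0527, PLA2G15).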

How the data were processed

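The authors deposited FPKM values per gene for 6 libraries, 3 Era and 3 Era+VK, sequenced as paired ends on an Illumina NovaSeq instrument. The submitters' processing notes name cutadapt, HISAT2 and StringTie (version 2.1.6) and the mouse build mm10, although the deposited gene identifiers are human, so no coordinate was taken from that build. Each library lists 33496 genes, 11924 to 12027 of them at 1 FPKM or more. Low FPKM values showed no whole-read steps, so depth and counting error are unknown. Groups and replicate numbers are from the sample titles, and doses are from the study's methods.

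The 11981 genes whose mean over all libraries reached 1 FPKM, among them 6 of the 7 members, entered a limma fit (version 3.58.1, R 4.3.3, trended empirical Bayes) of log2(FPKM + 1) by group. P-values were adjusted over all of them by Benjamini-Hochberg, and genes under 0.05 were called. A difference on this scale understates the change of low genes. The study describes its data as averages of independent experiments, but the labels tie no library to a culture or experiment, so p-values measure the spread between these libraries, part of which may be technical. The members and the gene lists were chosen with earlier results of these data known. Named genes are the members, of each list the genes called and up to 3 more with the highest mean, and the 5 most correlated with CYP1A1 or CYP1B1. All other genes named were added after values were seen. They are the rows beside or overlapping a member (PDCD6-AHRR, PDCD6, CYP1A2, CYP1B1-AS1), SERPINB2, STC2, NFE2L2, ATF4, ALDH1A1 and ALDH1A2. Marker genes other than RPE65, BEST1, RLBP1, HBG2 and GATA1 were also added then. Alternatives were a pseudocount of 0.1, no minimum, at least 1 FPKM in every library, quantile normalization, rescaling without mitochondrially encoded genes, a replicate block, each library left out, and 1 Era+VK library alone. The fit was tested on simulated data.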

Additional observations from a re-analysis of the deposited data

How the results depend on the processing

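AHR, ARNT and TIPARP were on the same side of the threshold in limma under all 13 alternatives, with differences of -0.09 to -0.00, 0.07 to 0.19 and 0.21 to 0.26 in log2(FPKM + 1). ALDH1A3 stayed between 0.35 and 0.45 and passed with at least 1 FPKM in every library (0.38), after quantile normalization (0.40), after rescaling without mitochondrially encoded genes (0.38) and without Era+VK replicate 3 (0.44); its adjusted p in limma ranged from 0.0284 to 0.193, and leaving out 1 library gave 0.35 to 0.44. CYP1A1 was at 1.01 with a pseudocount of 0.1 and at 0.63 to 0.73 with 1 library left out, and CYP1B1 stayed between 0.84 and 0.998. AHRR was at 0.027 with 1 Era+VK library, and it has no value with at least 1 FPKM in every library, after quantile normalization or in the replicate block fit, since it is not among the genes fitted there. The number of genes called, 74, was 1 without a minimum, 122 with at least 1 FPKM in every library, 112 after quantile normalization and 42 with the replicate block. It was 2 to 71 with 1 library left out: 3, 2 and 5 without Era replicates 1, 2 and 3, and 42 without Era+VK replicate 3. The further AHR targets had 0 to 1 gene called when a library was left out (STC2, without Era+VK replicate 2). The bHLH-PAS genes had 0 called without a minimum, with the replicate block and with 1 Era+VK library, and 0 to 1 with a library left out (EPAS1). The other 4 lists had 0 called under every alternative. Libraries of the same replicate number deviated together only weakly (correlations 0.0709, 0.103 and 0.0210 for numbers 1, 2 and 3), and Era replicate 3 correlated more with Era+VK replicate 1 (0.0401), so the numbers were not taken to pair libraries. The block changed no call of a member. With 1 Era+VK library, that library is assumed to vary like the Era libraries. Without counts, no detection limit can be given for AHRR, CYP1A2 or the other genes near 0.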

Other observations

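ALDH1A2, the retinaldehyde dehydrogenase most used in the embryo, was below the minimum level and was picked after its values were seen. It was at 0.06, 0.09 and 0.10 FPKM in Era and at 0.05, 0.74 and 0.65 FPKM in Era+VK replicates 1, 2 and 3. The 2 libraries in which it was higher are those with globin transcripts, and whether the 2 are linked was not tested. ALDH1A1, the third enzyme of that family, was at 0.04 FPKM or less in every library, so ALDH1A3 was the retinaldehyde dehydrogenase gene expressed at a mean above 1 FPKM. The ratio of ALDH1A3 to CYP1B1 was 18.7, 18.5 and 19.1 in the Era libraries and 12.1, 11.7 and 12.7 in the Era+VK libraries, as a description without a test.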
